A study of Mus musculus with 4 samples.

Results

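Chromatin accessibility was examined at 9 mouse genes of innate-like T cells, out of 21888 genes counted: the transcription factors Zbtb16 (PLZF) and Sox13, the inhibitors of E proteins Id2 and Id3, the signalling adaptors Fcer1g, Tyrobp (DAP12) and Hcst (DAP10), and the kinases Syk and Blk. The genes were chosen by name, with earlier results of these data known, and for each of them the ATAC-seq fragments with an end in the gene or within 5 kb on either side were counted in every T cell population and expressed per 1000000 fragments of that population (FPM). Nuclei of sorted T cells came from AKP tumors, which grow from genetically modified intestinal organoids placed in the wall of the mouse cecum, and from adjacent tumor-free cecum, 4 weeks after transplantation. Each tissue gave 1 library, so tissue and library cannot be told apart; the strain, the number of mice pooled and the sort gate of these libraries are not given in the sources used here. In the study's isolation for sorting the mice were perfused and the epithelial layer was shaken off before digestion, which limits the libraries as a view of intraepithelial T cells.

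Innate-like T cells carry T cell receptors but use parts of the signalling machinery of natural killer and myeloid cells. Fcer1g and Tyrobp are short membrane adaptors whose activation motifs recruit the kinase Syk, whereas Hcst couples the receptor NKG2D to other signals. PLZF, encoded by Zbtb16, is the defining transcription factor of NKT cells and related innate-like lineages, SOX13 and BLK take part in the development of IL-17-producing gamma-delta T cells, and ID2 and ID3 hold back the E proteins that read CANNTG motifs (E-boxes) in DNA.

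The study's cell labels were made by clustering the RNA of the same nuclei. Grouping 5 of them as innate-like was a choice made here. Only Innate-like T#1 and Innate-like T#2 carry that name, and the study lists CD8αα cells among its CD8 T cells and names the gamma-delta clusters separately. Innate-like T#1 had 1398 cells in the cecum library and 1841 in the tumor library, Innate-like T#2 had 165 and 437, CD8aa (CD8αα T cells) had 407 and 473, the cytotoxic gamma-delta label (Cytotoxic gdT) had 523 and 595, and the Rorgt gamma-delta label (Rorgt gdT) had 438 and 273. They were compared with conventional alpha-beta T cells, the pool of 10 CD4 and CD8 labels without Treg cells, with 2804 and 3723 cells. All 5 comparisons share these conventional cells. Values are given for cecum first and tumor second, and with 1 library per tissue there is no test: intervals are exact 95% intervals that cover counting error only, not the spread between animals or libraries. Fcer1g RNA helped the study describe its innate-like clusters, so accessibility at Fcer1g is not independent of those labels.

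The libraries held 66466111 and 96747563 fragments, of which 66.2% and 64.3% fell in labelled cells, with a median of 4374 and 5846 fragments per labelled cell. The labels were compared with defining markers in accessible chromatin. Cd8b1, the CD8 beta chain, stood at 13.5 and 14.5 FPM in CD8aa cells against 103 and 98.4 in conventional CD8 cells. Cd8a was at 53.4 and 59.8 FPM in CD8aa cells, also lower than in conventional CD8 cells (93.6 and 87.8). Trdc, the delta chain constant gene, was at 77.8 and 68.0 FPM in Cytotoxic gdT and 48.6 and 40.5 in Rorgt gdT cells, against 4.36 and 2.69 in conventional cells; Innate-like T#1 (17.9 and 18.6 FPM), Innate-like T#2 (24.5 and 15.9) and CD8aa cells (15.3 and 13.3) lay between. Among the 15621 labelled cells, 84 barcodes occurred in both libraries.

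Fcer1g, Syk, Id2 and Id3 are shown by the 250 bases before their start sites, because these windows span a promoter that was open in some populations and almost closed in others (Fcer1g, Syk) and the promoters of the paired E protein inhibitors (Id2, Id3). The sequences are from RefSeq on GRCm38.p6, written 5′ to 3′ along the gene's strand, with each E-box (CANNTG, which is its own reverse complement) in capitals.
Fcer1g (chr1:171234350-171234599, minus strand): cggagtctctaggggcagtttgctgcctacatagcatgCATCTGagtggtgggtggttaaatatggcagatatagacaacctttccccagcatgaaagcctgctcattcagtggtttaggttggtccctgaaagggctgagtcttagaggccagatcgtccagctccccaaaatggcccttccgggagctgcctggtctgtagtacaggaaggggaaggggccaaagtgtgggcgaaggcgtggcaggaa
Syk (chr13:52583187-52583436, plus strand): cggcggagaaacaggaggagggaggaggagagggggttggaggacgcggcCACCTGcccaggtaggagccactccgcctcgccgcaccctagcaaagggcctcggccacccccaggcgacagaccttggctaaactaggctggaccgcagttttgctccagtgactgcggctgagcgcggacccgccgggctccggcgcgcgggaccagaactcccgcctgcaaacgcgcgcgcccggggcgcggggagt
Id2 (chr12:25096093-25096342, minus strand): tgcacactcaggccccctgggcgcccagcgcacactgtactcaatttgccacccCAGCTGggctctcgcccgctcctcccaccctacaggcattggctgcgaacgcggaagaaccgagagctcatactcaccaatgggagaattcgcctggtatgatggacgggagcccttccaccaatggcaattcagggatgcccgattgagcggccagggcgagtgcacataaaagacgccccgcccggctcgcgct
Id3 (chr4:136143572-136143821, plus strand): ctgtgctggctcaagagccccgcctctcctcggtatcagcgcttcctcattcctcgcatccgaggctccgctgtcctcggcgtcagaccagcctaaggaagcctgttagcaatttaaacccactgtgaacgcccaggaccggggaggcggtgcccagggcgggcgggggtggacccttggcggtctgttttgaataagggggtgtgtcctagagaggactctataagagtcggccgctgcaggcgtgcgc
The Fcer1g, Syk and Id2 windows held 1 E-box each and the Id3 window held 0, and 66.2% of 32851 mouse promoters of this length held at least 1. Promoter entries were found for 6 of the 9 genes, and no entry for Zbtb16, Tyrobp or Blk was used. Over these bases and the next 50, Fcer1g had 3.72 and 4.48 FPM in Innate-like T#1, 6.60 and 2.98 in Innate-like T#2, 5.11 and 4.05 in CD8aa and 3.32 and 2.39 in Cytotoxic gdT cells. Rorgt gdT cells had 0 and 2 fragments there (the floor of 3 fragments set for a count of 0 corresponds to 1.39 FPM in the cecum), and conventional cells had 0.213 and 0.353 FPM from 4 and 10 fragments. The Fcer1g promoter was thus more open in 4 of the 5 populations than in conventional cells, while the Rorgt gdT counts were too few to place it (log2 1.41 in the tumor, interval -1.82 to 3.64). The Syk promoter shown had 1.49 and 1.28 FPM in Innate-like T#1 (12 and 16 fragments) and 1.89 and 2.65 in Innate-like T#2 (2 and 8 fragments), against 0.213 and 0.0707 in conventional cells (4 and 2 fragments). A second Syk promoter entry (chr13:52596632-52596931) had 2 and 1 fragments in Innate-like T#1, 0 in Innate-like T#2 and 0 and 1 in conventional cells. At the Id3 promoter both Innate-like T labels were above conventional cells, with 33.0 and 27.1 FPM in T#1 and 33.9 and 30.8 in T#2 against 22.1 and 18.5, whereas the Id2 promoter had 44.0 and 42.0 FPM in T#1 against 45.2 and 41.9.

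A gene was called higher or lower where log2(FPM + 1) differed by at least 1.5-fold in the same direction in both libraries, among genes with at least 50 fragments over the label and the conventional cells in each library; all 9 genes passed this minimum in every comparison. In Innate-like T#1, 5 of the 9 were higher (Zbtb16, Sox13, Id3, Fcer1g and Syk) against 4.66% of all genes tested, and 0 were lower against 4.09%. In Innate-like T#2, 3 were higher (Zbtb16, Fcer1g and Syk) against 3.35%, and 1 was lower (Blk) against 3.81%. In CD8aa cells, 2 were higher (Zbtb16 and Fcer1g) against 2.75%, and 0 were lower against 6.22%. The Cytotoxic gdT cells had the same 2 genes higher, against 2.27%, and 0 lower against 4.67%. In Rorgt gdT cells, 3 were higher (Zbtb16, Sox13 and Blk) against 4.02%, and 0 were lower against 4.30%. Zbtb16 was the 1 gene of the 9 called in all 5 comparisons. The share of all genes called in all 5, which use the same conventional cells, was not computed. Ikzf2 and Lyn, from the lists described below, were also called higher in all 5. The median log2 difference of the 9 genes was 0.61 and 0.68 in Innate-like T#1, where the median over all genes tested was -0.02 and -0.01, and in the other labels it lay between 0.09 and 0.48.

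**Figure D1:**
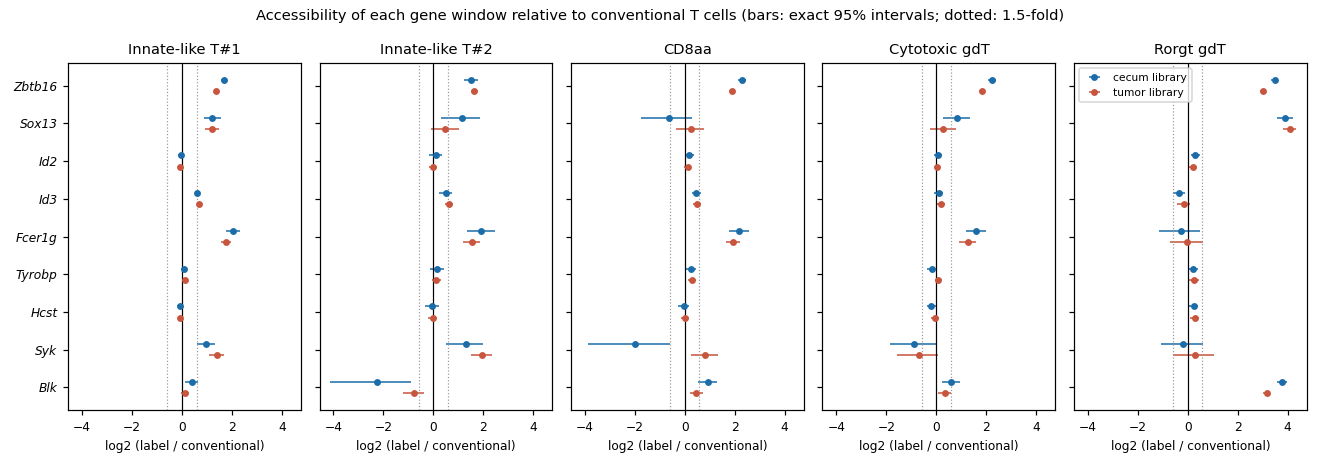
Log2 ratio of FPM in each of the 5 innate-like labels over pooled conventional T cells for the 9 genes, cecum and tumor shown separately, with exact 95% intervals that cover counting error only. Zbtb16 lay above 0 in every label and library, Fcer1g in 4 labels, and Sox13 and Blk reached log2 ratios above 3 in Rorgt gdT cells.

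Zbtb16 (chr9:48651797-48836225, GRCm38) was more accessible in every innate-like population than in any conventional label. Its level was 522 and 473 FPM in Rorgt gdT, 228 and 219 in CD8aa, 219 and 208 in Cytotoxic gdT, 151 and 152 in Innate-like T#1 and 133 and 183 in Innate-like T#2 cells, while pooled conventional cells had 46.6 and 58.5 FPM. The conventional labels with at least 50 cells ran from 16.8 to 90.7 FPM in the cecum (median 29.4) and from 21.9 to 87.6 in the tumor (median 37.5), so the groups did not overlap in either library. The share of all genes with such a gap was not computed. In the cecum the lowest innate-like level, that of Innate-like T#2 (interval 112 to 157), overlapped in its interval with 2 conventional labels. These were Th17 cells, the highest (72 to 113), and newly activated CD4 cells (63 to 122). Rorgt gdT cells were 11.2-fold (log2 3.48, interval 3.36 to 3.61) and 8.10-fold (log2 3.02, interval 2.90 to 3.13) above conventional cells. CD8aa and Cytotoxic gdT cells, next in the order, had overlapping intervals in both libraries, with log2 ratios over conventional cells of 2.29 and 1.90 for CD8aa and 2.23 and 1.83 for Cytotoxic gdT. Innate-like T#1 was 3.24-fold and 2.61-fold higher (log2 1.69 and 1.38) and Innate-like T#2 2.85-fold and 3.13-fold higher (log2 1.51 and 1.64). The log2 ratio of T#1 over T#2 was 0.18 (interval -0.07 to 0.44) in the cecum and -0.26 (interval -0.40 to -0.12) in the tumor, so their order in the cecum is not placed beyond counting error. Against single conventional labels, CD8aa exceeded Cytotoxic CD8 by log2 2.03 and 1.85, and Rorgt gdT exceeded Th17 by 2.52 (interval 2.19 to 2.87) and 2.73 (interval 2.49 to 2.97). The window also overlaps the predicted gene Gm32280.

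The locus was also read in 450 tiles of 500 bases, in the gene and 20 kb on either side. For each gene, tiles were compared in the label where its window ratio was highest, which favours tiles that are higher. The tallies therefore describe where a difference lies and are no separate support for it. The share of higher tiles over all genes was not computed. Of the 12 tiles with at least 20 conventional fragments in each library, 12 were higher in Rorgt gdT cells in both libraries and 11 of them by at least 1.5-fold. A further 13 tiles reached 20 fragments only when those of Rorgt gdT cells were added, so their direction was favoured by the minimum and they are left out of that count; this stricter minimum was chosen after these values were seen. Among those 13, the tile with the largest difference by the smaller of both libraries lay inside the gene 9.47 kb from its nearer end (chr9:48826501-48827000), with 18.0 and 18.8 FPM in Rorgt gdT against 0.319 and 0.247 in conventional cells (log2 5.82 and 6.25). At the same tile Innate-like T#2 had 4.71 and 4.64 FPM, and Innate-like T#1, CD8aa and Cytotoxic gdT cells lay between 1.28 and 2.86.

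Sox13 (chr1:133382300-133424459) encodes an HMG-box factor of the gamma-delta lineage, and it had the largest window ratio of the 9 genes, in Rorgt gdT cells. These cells had 108 and 129 FPM, 14.9-fold and 16.9-fold above the 7.28 and 7.63 FPM of conventional cells (log2 3.89 and 4.08). In the cecum the Sox13 interval (3.58 to 4.21) overlapped with that of Blk (3.58 to 3.98). Within 1 kb of the gene ends, Sox13 was at log2 1.87 and 2.52, below Zbtb16 at 3.41 and 2.63. Among 16310 genes ranked by the smaller of the 2 differences in this comparison, Sox13 stood at rank 9, Blk at rank 20 and Zbtb16 at 25. The Cytotoxic gdT cells, which share the gamma-delta receptor, had 13.0 and 9.30 FPM, below Rorgt gdT by log2 3.06 and 3.80. Innate-like T#1 was called higher at a much lower level, 16.98 and 17.7 FPM (log2 1.22 and 1.21). That level did not exceed CCR7+ CD4 cells, the highest conventional label at 20.1 and 20.6 FPM. CD8aa had 4.64 and 8.96 FPM and Innate-like T#2 had 16.0 and 10.6, the latter from 17 and 32 fragments. Of the 3 Sox13 tiles with enough conventional fragments, 2 were higher in Rorgt gdT cells in both libraries. A tile that reached the minimum only through Rorgt gdT cells had the steepest difference. At chr1:133404001-133404500, 20.2 kb from the nearer gene end, Rorgt gdT cells had 51 fragments in each library (23.6 and 24.0 FPM) against 1 in each for all conventional cells. At that tile the other 4 innate-like labels had 0 or 1 fragment in each library. The window also overlaps Etnk2.

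**Figure D2:**
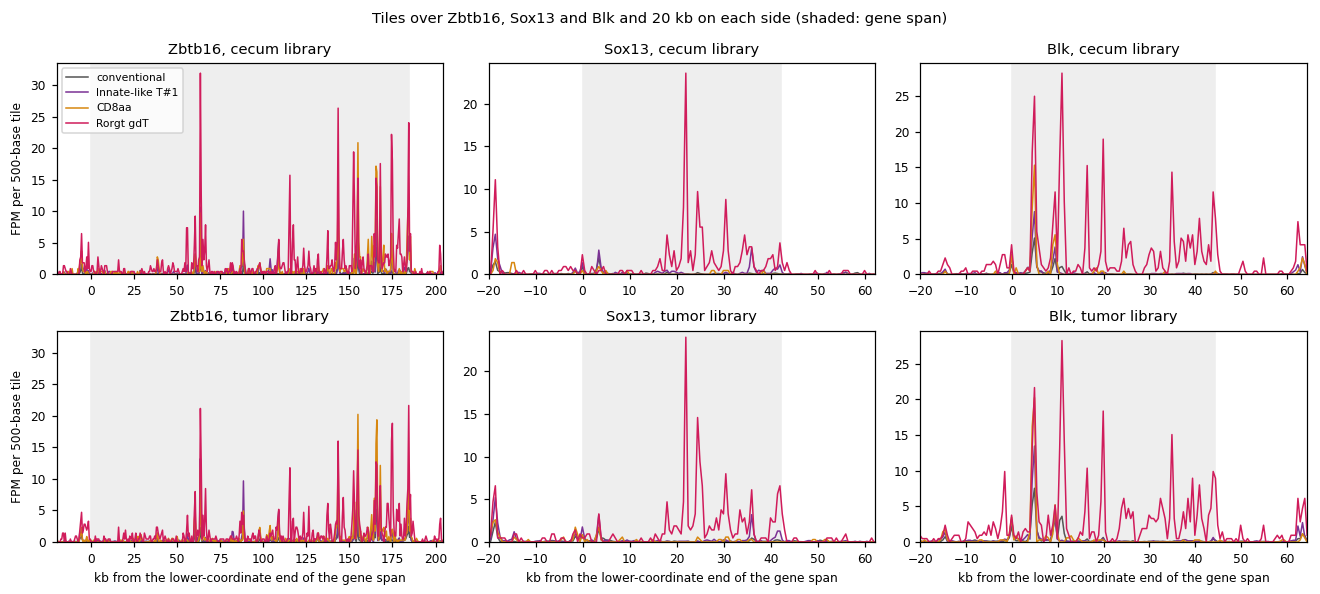
Fragments with an end in each 500-base tile (FPM) along Zbtb16, Sox13 and Blk, against distance in kb from the lower-coordinate end of the gene, for conventional, Innate-like T#1, CD8aa and Rorgt gdT cells in cecum and tumor. Rorgt gdT cells were higher in both libraries at 12 of 12 tiles with at least 20 conventional fragments at Zbtb16, 2 of 3 at Sox13 and 7 of 7 at Blk. This label was taken because its window ratio was the highest at each of these genes, so the tallies are no separate support.

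Blk (chr14:63372837-63417187), a Src family kinase best known from B cells, had the widest range of the 9 genes over the labels with at least 50 cells, 65.3-fold from lowest to highest in the cecum and 49.96-fold in the tumor. Both lowest levels rest on 4 fragments, in Innate-like T#2 in the cecum and CCR7+ CD4 in the tumor. The folds are therefore rough, and the tumor range is not set apart from that of Sox13 (41.9-fold). Rorgt gdT cells had 246 and 274 FPM, 13.7-fold and 8.93-fold above conventional cells at 17.9 and 30.7 FPM (log2 3.78 and 3.16). Th17 cells had 78.1 and 60.7 FPM, the 2 Treg labels lay between 59.8 and 71.5, and PD1+ CD4 cells in the tumor had 61.0, so that Rorgt gdT cells stood above Th17 cells by log2 1.66 and 2.17, and with both Treg labels added to the conventional pool their cecum ratio fell to log2 2.91. CD8aa (33.9 and 42.2 FPM), Cytotoxic gdT (26.9 and 38.6) and Innate-like T#1 (23.6 and 33.5) were above the conventional pool in both libraries by less than the call in at least 1 of them, and below Th17 cells. Innate-like T#2 was the exception on the low side, with 3.77 and 17.9 FPM from 4 and 54 fragments (log2 -2.25, interval -4.13 to -0.88, and -0.78, interval -1.20 to -0.38). This call was lost when the conventional labels were weighted equally (0 genes lower) and when CD8 labels alone served as reference (0 genes lower). The B cell list of 6 genes summed to 198 and 194 FPM in Innate-like T#1, to 180 and 207 in Innate-like T#2 and to 146 and 170 in Rorgt gdT cells, against 161 and 161 in conventional cells, and its part in the Blk result was not tested. Of 7 Blk tiles with enough conventional fragments, 7 were higher in Rorgt gdT cells in both libraries, 6 of them by at least 1.5-fold. Another tile reached the minimum only through Rorgt gdT cells. At chr14:63407501-63408000, 9.44 kb from the nearer gene end, Rorgt gdT cells had 31 and 32 fragments (14.3 and 15.1 FPM), conventional cells had 1 in each library, and Th17 and the other 4 innate-like labels had 0.

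Fcer1g (chr1:171229572-171234349) encodes the common gamma chain of Fc receptors. It was more accessible in CD8aa (38.1 and 41.6 FPM), Innate-like T#1 (34.7 and 37.1), Innate-like T#2 (32.1 and 31.5) and Cytotoxic gdT cells (25.6 and 26.0) than in conventional cells (8.45 and 10.9). The conventional labels ran from 2.51 to 13.9 FPM in the cecum and from 6.83 to 12.4 in the tumor, below the levels of these 4 populations. Here too the share of all genes with such a gap was not computed. Counting intervals lay above those of every conventional label for CD8aa and Innate-like T#1 in both libraries and for Innate-like T#2 in the tumor, while Cytotoxic gdT in both libraries and Innate-like T#2 in the cecum overlapped with at least 1 conventional label. The intervals of the first 3 overlapped each other in both libraries. The log2 ratios were 2.17 and 1.93 for CD8aa, 2.04 and 1.77 for Innate-like T#1, 1.92 and 1.53 for Innate-like T#2 and 1.60 and 1.26 for Cytotoxic gdT. Rorgt gdT cells, at 6.94 and 10.8 FPM, were inside the conventional range (log2 -0.28, interval -1.16 to 0.48, and -0.01, interval -0.69 to 0.60) and below Cytotoxic gdT cells, with log2 ratios of -1.88 and -1.26. Hence the 2 gamma-delta labels differed at Fcer1g in the opposite direction to Zbtb16, Sox13 and Blk. CD8aa cells exceeded Cytotoxic CD8 cells at Fcer1g by log2 1.92 and 1.76. Of 15 tiles with at least 20 conventional fragments in each library, 7 were higher in CD8aa cells in both libraries (3 by at least 1.5-fold) and 3 were lower. The largest differences were at 2 tiles. The first, inside the gene 2.10 kb from its nearer end (chr1:171232001-171232500), had 15.8 and 18.8 FPM in CD8aa and 14.0 and 13.7 in Innate-like T#1 against 1.91 and 2.40 in conventional cells, and the other covered the start site (chr1:171234001-171234500), with 8.82 and 4.91 FPM in CD8aa against 0.319 and 0.495; it is not among those 15, because it reached 20 fragments only with those of CD8aa cells. The window also overlaps Apoa2, and with 20 kb on either side the called log2 ratios of Fcer1g fell to between 0.09 and 0.29.

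**Figure D3:**
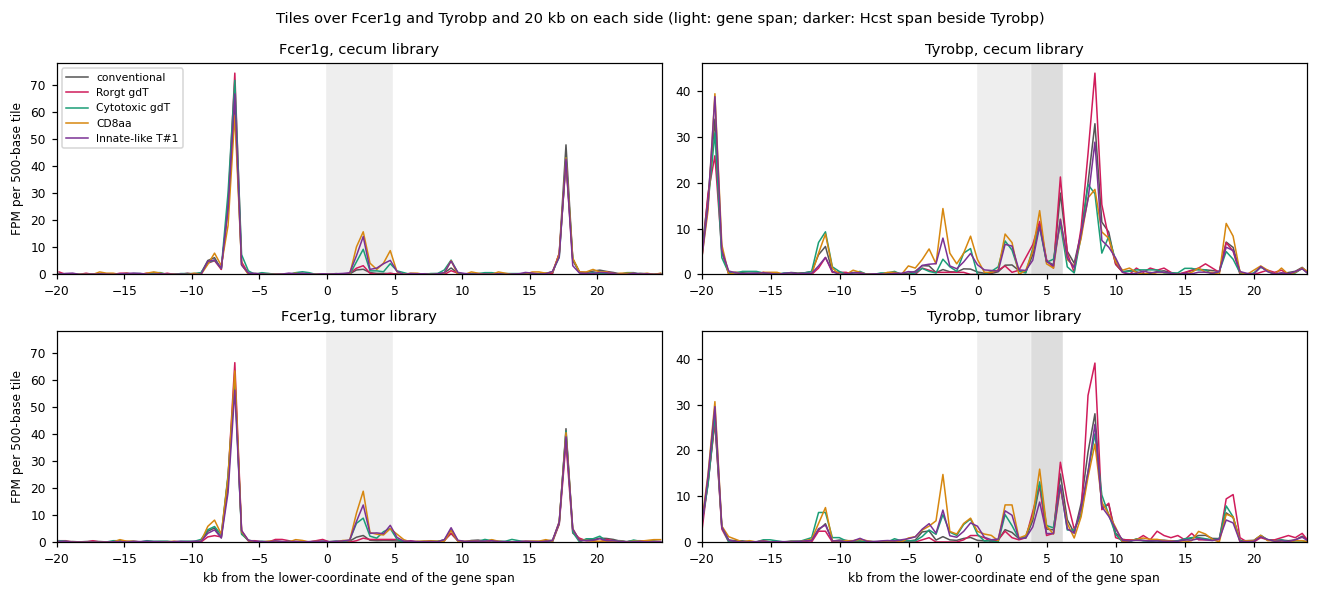
Fragments with an end in each 500-base tile (FPM) along Fcer1g and along Tyrobp with the neighbouring Hcst (darker shade), against distance in kb from the lower-coordinate end of the gene, for conventional, Rorgt gdT, Cytotoxic gdT, CD8aa and Innate-like T#1 cells in cecum and tumor. At Fcer1g the CD8aa cells reached 15.8 and 18.8 FPM at a tile inside the gene against 1.91 and 2.40 in conventional cells, and beyond the Tyrobp end that faces away from Hcst the CD8aa cells reached 14.4 and 14.7 FPM.

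Tyrobp (chr7:30413782-30417582) and Hcst (chr7:30417712-30419854) lie 129 bases apart, and their windows shared 92.9% and 91.4% of the fragments counted for Tyrobp. Both windows also reach into Nfkbid. In these windows no innate-like label was called at either gene. Tyrobp had 102 and 99.6 FPM in Innate-like T#1, 108 and 100.2 in Innate-like T#2, 114 and 113 in CD8aa, 86.1 and 98.0 in Cytotoxic gdT and 113 and 109 in Rorgt gdT cells, against 96.9 and 92.3 in conventional cells. Hcst lay between 90.4 and 123 FPM in these labels against 104 and 96.9. The largest departure at Hcst was in Rorgt gdT cells (log2 0.24 and 0.27), where a single tile in Nfkbid (chr7:30422001-30422500) had 43.9 and 39.0 FPM, against 32.9 and 28.0 in conventional cells.

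The window on Tyrobp was therefore also cut at the gene end that faces Hcst, a choice made after these values were seen. This cut removed the flank towards Hcst and Nfkbid, while the Tyrobp gene itself still lies in the Hcst window as well. In the cut window Tyrobp had 50.1 and 46.5 FPM in CD8aa, 32.7 and 34.3 in Innate-like T#1, 29.2 and 23.5 in Innate-like T#2 and 24.3 and 27.2 in Cytotoxic gdT cells, against 11.3 and 12.5 in conventional cells. These are ratios of 4.45-fold and 3.73-fold for CD8aa, 2.90-fold and 2.75-fold for Innate-like T#1, 2.59-fold and 1.89-fold for Innate-like T#2 and 2.15-fold and 2.18-fold for Cytotoxic gdT. Rorgt gdT cells had 10.2 and 7.06 FPM (log2 -0.15, interval -0.85 to 0.49, and -0.82, interval -1.67 to -0.08). The conventional labels with at least 50 cells ran from 4.69 to 17.1 FPM in the cecum and from 2.99 to 18.9 in the tumor, both times highest in Cytotoxic CD8 cells. The intervals of CD8aa and Innate-like T#1 lay above those of all these labels, and those of Innate-like T#2 and Cytotoxic gdT overlapped with at least 1 of them in each library. The tile with the largest difference in CD8aa cells lay 2.53 kb outside Tyrobp, in no gene (chr7:30411001-30411500), and held part of the excess: CD8aa had 14.4 and 14.7 FPM there, Innate-like T#1 7.93 and 6.96, Innate-like T#2 6.60 and 3.32 and Cytotoxic gdT 3.32 and 5.96, against 1.06 and 1.17 in conventional cells. Rorgt gdT cells had 1 and 0 fragments at this tile.

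Syk (chr13:52582610-52648792), the kinase recruited by the motifs of Fcer1g and Tyrobp, was low throughout and highest in CCR7+ CD8 cells among conventional labels (28.3 and 20.3 FPM). Innate-like T#2 had 17.9 and 22.2 FPM from 19 and 67 fragments, and Innate-like T#1 had 14.4 and 15.1 from 116 and 189, against 7.33 and 5.76 in conventional cells. The log2 ratios were 1.29 and 1.95 for T#2 and 0.97 and 1.39 for T#1. The interval of Innate-like T#2 overlapped with that of CCR7+ CD8 cells in both libraries. Innate-like T#1 was below CCR7+ CD8 cells in both, but in the tumor these had 18 fragments and the order is not placed beyond counting error. Syk in the innate-like labels thus did not stand above all conventional labels. Cytotoxic gdT cells had 3.99 and 3.58 FPM (log2 -0.88 and -0.69) and Rorgt gdT cells 6.47 and 7.06. CD8aa cells were below conventional cells in the cecum with 4 fragments (1.86 FPM) and above them in the tumor with 35 (10.1 FPM). Only 1 tile of Syk had enough conventional fragments, and it was not higher in Innate-like T#2 cells in both libraries, so the difference was not placed within the gene beyond the promoter counts.

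Id2 (chr12:25093799-25096092) and Id3 (chr4:136143822-136145392) are counterparts that lymphocytes use in different proportion. Id2 was nearly level, with 117 and 119 FPM in Innate-like T#1, 129 and 123 in Innate-like T#2, 137 and 136 in CD8aa, 127 and 128 in Cytotoxic gdT and 149 and 145 in Rorgt gdT cells, against 121 and 125 in conventional cells. Id3 varied more: Innate-like T#1 had 137 and 122 FPM, Innate-like T#2 125 and 118, CD8aa 123 and 107, Cytotoxic gdT 95.4 and 86.1 and Rorgt gdT 70.8 and 68.2, against 89.5 and 76.1. The order at Id3 ran from Innate-like T#1 at the top to Rorgt gdT at the bottom of the innate-like labels in both libraries, and the intervals of the first 3 overlapped with their neighbours, while those of CD8aa and Cytotoxic gdT did not overlap. Innate-like T#1 was called higher (log2 0.62, interval 0.51 to 0.73, and 0.68, interval 0.59 to 0.78), close to the 1.5-fold limit of 0.58, whereas Innate-like T#2 (0.49 and 0.64) and CD8aa (0.46 and 0.49) stayed just below it in at least 1 library. This call ended for the gene span alone (cecum log2 0.40) and, in the tumor, with conventional labels weighted equally (log2 0.52), for the mean over cells (0.54) and against conventional CD8 labels alone (0.54). The level of Innate-like T#1 was above the highest conventional label in the cecum, newly activated CD4 cells at 124 FPM, with overlapping intervals, and not above CCR7+ CD4 cells in the tumor, at 123 FPM. A tile 3.57 kb outside Id3 (chr4:136140001-136140500) had 10.0 and 9.12 FPM in Innate-like T#1 against 1.43 and 1.80 in conventional cells (log2 2.81 and 2.34).

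The ratio of Id2 to Id3 fragments within a label does not depend on depth. Its log2 value was -0.24 (interval -0.36 to -0.11) and -0.04 (interval -0.14 to 0.06) in Innate-like T#1, 0.04 and 0.06 in Innate-like T#2, 0.15 and 0.35 in CD8aa, 0.41 and 0.57 in Cytotoxic gdT and 1.08 and 1.09 in Rorgt gdT cells. Conventional cells were at 0.43 and 0.72, so both Innate-like T labels and CD8aa lay toward Id3 and Rorgt gdT cells toward Id2. In the cecum the intervals of Innate-like T#2 (-0.31 to 0.40) and CD8aa (-0.09 to 0.39) overlapped with that of conventional cells (0.34 to 0.52). Conventional labels lay near Innate-like T#2 and CD8aa as well, among them CCR7+ CD4 (0.10 and 0.06), CCR7+ CD8 (0.09 and 0.29) and Tfh-like cells (0.11 and 0.00). These labels lay further toward Id3 than CD8aa in both libraries, with overlapping intervals. Rorgt gdT cells were near IL10+ Treg cells (1.18 and 1.16), and PD1+ CD4 cells in the tumor had 1.60.

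**Figure D4:**
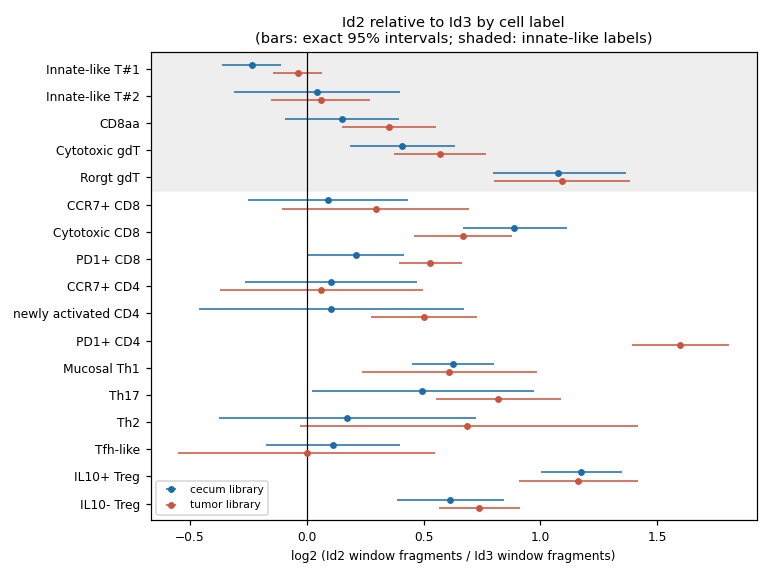
Log2 ratio of Id2 to Id3 fragments in each T cell label, cecum and tumor, with exact 95% intervals that cover counting error only. Innate-like T#1 lay at -0.24 and -0.04 and Rorgt gdT cells at 1.08 and 1.09, on either side of the pooled conventional values of 0.43 and 0.72, which are not drawn.

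Between tissues, the levels of the 9 genes in the innate-like labels differed by at most 0.25 in log2 in 33 of 45 pairs of gene and label, against 68.9% of pairs over all genes tested. In 8 of the 45 the counting interval excluded 0, against 12.5% over all genes tested. Blk was higher in the tumor library in Innate-like T#1 (log2 0.51, interval 0.26 to 0.76), Innate-like T#2 (2.25, interval 0.81 to 4.17) and Cytotoxic gdT cells (0.52, interval 0.13 to 0.92), and so was the conventional pool (0.78, interval 0.59 to 0.96). PD1+ CD4 cells gave 375 of the 868 Blk fragments of that pool in the tumor and 5 of 337 in the cecum. Every single conventional label had a Blk interval that included 0. Zbtb16 was higher in the tumor in Innate-like T#2 cells (0.46, interval 0.19 to 0.74) and in the conventional pool (0.33, interval 0.21 to 0.45), and slightly lower in Rorgt gdT cells (-0.14, interval -0.26 to -0.02). Single conventional labels differed at Zbtb16. CCR7+ CD8 was higher (1.04, interval 0.38 to 1.72), newly activated CD4 was lower (-1.29, interval -1.84 to -0.72), and the intervals of the other labels included 0. Sox13 in Rorgt gdT cells was higher by 0.26 (interval 0.0007 to 0.52), and Syk in CD8aa cells by 2.45 (interval 0.96 to 4.40) on 4 and 35 fragments. Id3 was lower in Innate-like T#1 (log2 -0.17, interval -0.28 to -0.05) and in the conventional pool (-0.23, interval -0.33 to -0.14). Of the pool's 2154 Id3 fragments in the tumor, 256 belonged to PD1+ CD4, its lowest label, against 3 of 1684 in the cecum. Among single conventional labels, PD1+ CD8 was lower at Id3 (-0.23, interval -0.42 to -0.05). The intervals of the other labels included 0, with ratios on both sides of it. The conventional pool holds different labels in each tissue, for instance 616 PD1+ CD4 cells in the tumor library but 14 in that of the cecum. The tumor ratios therefore rest on another mix than the cecum ratios, and the pooled conventional shifts given here include that change of mix.

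**Figure D5:**
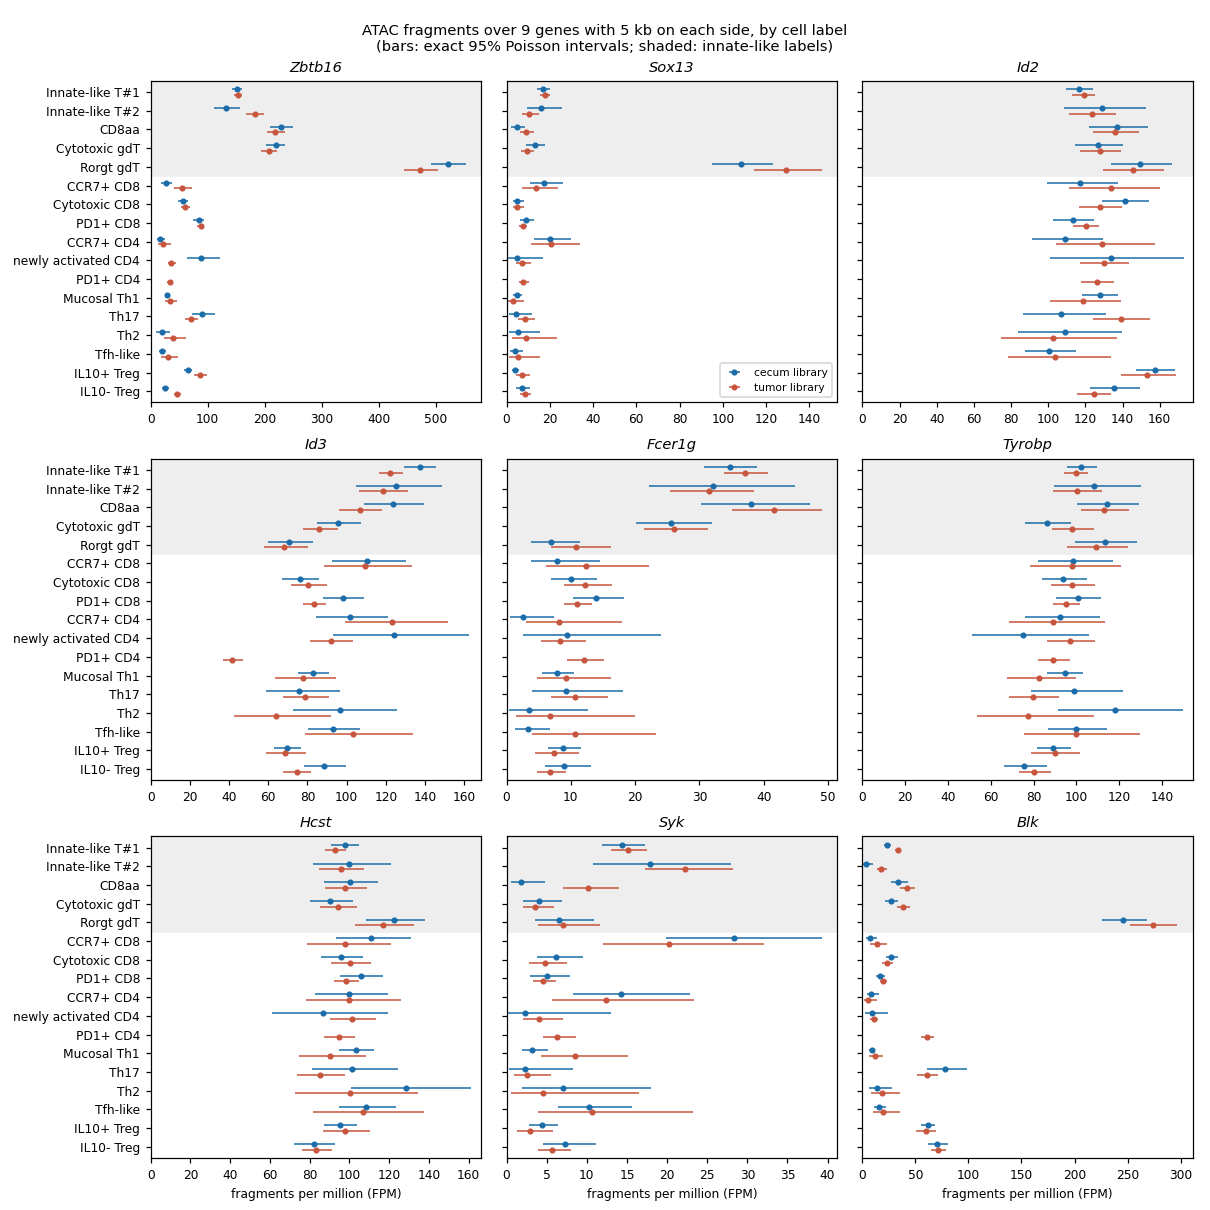
Level of each of the 9 genes (FPM, linear axis from 0) in every T cell label with at least 50 cells, cecum and tumor libraries, with exact 95% Poisson intervals and the innate-like labels shaded. The innate-like labels lay above all conventional labels at Zbtb16 in both libraries.

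The neighbouring signalling genes were taken as fixed lists. Of 14 genes of adaptor and antigen receptor signalling, 2 were higher and 1 lower in Innate-like T#1, 3 higher and 0 lower in Innate-like T#2, 2 and 2 in CD8aa, 2 and 0 in Cytotoxic gdT and 0 and 0 in Rorgt gdT cells. Over all genes tested the shares were between 2.27% and 4.66% higher and between 3.81% and 6.22% lower, and the median log2 difference of these 14 genes lay between -0.13 and 0.06 in every label and library. Plcg2, the phospholipase that works downstream of Syk, had 172 and 181 FPM in Innate-like T#1 against 53.1 and 63.7 in conventional cells, and Lat2, an adaptor of myeloid and B cells, had 53.1 and 55.9 against 20.4 and 29.3. Lat, the T cell counterpart of Lat2, was lower in Innate-like T#1 (33.2 and 34.9 FPM against 56.7 and 58.3) and in CD8aa cells (29.2 and 29.8). Of a list of 6 Src family kinases without Blk, 5 passed the minimum, 2 were higher in each of the 5 labels, and 1 was lower in CD8aa (Yes1) and 1 in Rorgt gdT cells (Fgr). Lyn was higher in all 4 labels that were higher at Fcer1g and also in Rorgt gdT cells, with 71.9 and 79.9 FPM in Innate-like T#1 against 13.7 and 18.1 in conventional cells.

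Of 10 receptors that pair with Fcer1g, Tyrobp or Hcst, 6 passed the minimum. Klrk1, which encodes NKG2D, the partner of Hcst, was higher in Innate-like T#2 (40.5 and 38.8 FPM) and CD8aa cells (43.2 and 39.0) than in conventional cells (15.8 and 21.1). Klrc2, an activating NK receptor that signals through Tyrobp, was called higher in every innate-like label except Rorgt gdT, at low counts. It had 9 and 30 fragments in Innate-like T#2 (8.48 and 9.95 FPM) and 17 and 21 in Cytotoxic gdT cells (5.65 and 5.01 FPM), against 2.82 and 2.86 FPM in conventional cells. In total 1 receptor was higher in Innate-like T#1, 3 in Innate-like T#2, 2 in CD8aa, 1 in Cytotoxic gdT and 0 in Rorgt gdT cells. Fcgr4 was lower in CD8aa cells. Over all genes tested, between 2.27% and 4.66% were called higher and between 3.81% and 6.22% lower. The median log2 difference of these 6 receptors lay between -0.13 and 0.58. Among 5 genes that encode E proteins or other ID proteins, such as Tcf12 and Id1, 4 passed the minimum and 0 were called in any of the 5 comparisons. Of 16 transcription factors of innate-like, gamma-delta or conventional T cells, Ikzf2, which encodes Helios, was higher in all 5 labels (407 and 394 FPM in Innate-like T#1 against 142 and 149). Calls in this list were 2 higher and 3 lower in Innate-like T#1, 2 and 1 in Innate-like T#2, 1 and 6 in CD8aa, 1 and 3 in Cytotoxic gdT and 2 and 3 in Rorgt gdT cells, beside the same shares over all genes. Its median log2 difference lay between -0.27 and -0.03. Sox4 was higher in Innate-like T#1 (61.6 and 53.1 FPM against 26.9 and 22.7) and Innate-like T#2 (48.1 and 42.1), and lower in CD8aa (2.78 and 6.94), Cytotoxic gdT (5.32 and 7.39) and Rorgt gdT cells.

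Markers of other cells were read in the same windows. The 6 T cell genes summed to 424 to 579 FPM over the innate-like labels in the cecum, and to 425 to 578 FPM in tumor cells, against 560 to 683 and 537 to 688 over conventional labels. The summed level of 6 myeloid genes ran from 104 to 181 FPM over the innate-like labels in the cecum and from 130 to 182 in the tumor, against 117 to 182 and 118 to 189 over conventional labels. Of these, Lyz2 was at 0.868 and 0.640 FPM in Innate-like T#1 against 0.903 and 1.41 in conventional cells, and Spi1 at 50.2 and 56.9 against 40.2 and 43.0. The 5 NK and innate lymphoid markers (Ncr1, Klrb1c, Eomes, Gata3 and Il7r) summed to 211 to 312 FPM and 214 to 349 FPM against 246 to 492 and 246 to 428. The sum was highest in Th2 cells in both libraries, so it does not set NK-type chromatin apart from that of conventional T cells. Single members went both ways: Klrb1c was called higher in Innate-like T#2, and Eomes lower in CD8aa, Cytotoxic gdT and Rorgt gdT cells. The 6 epithelial markers summed to 188 and 192 FPM in Innate-like T#1, 175 and 164 in Cytotoxic gdT, 161 and 166 in CD8aa and 138 and 159 in Innate-like T#2 cells, against 122 and 126 in conventional cells, whose highest labels had 161 and 153, and Epcam was at 29.6 and 29.6 in Innate-like T#1 against 12.9 and 12.6. Rorgt gdT cells, at 81.9 and 84.7, were below the conventional pool. At most 1 of the 6 myeloid and 1 of the 5 NK genes was at 0 in any innate-like label. Against the conventional pool, at 152 and 154 FPM, the myeloid sum was 181 and 174 in CD8aa, 174 and 182 in Cytotoxic gdT and 152 and 161 in Innate-like T#1 cells. The NK sum of Innate-like T#2, 304 and 349 FPM, was above the pool at 285 and 294. The part of myeloid, NK, B cell and epithelial markers in the values of the 4 labels with higher Fcer1g was not tested.

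Over the 16 labels with at least 50 cells in both libraries, the gene most like each of 8 of the 9 in pattern was named by Pearson's r of log2(FPM + 1), taken as a description because the labels share libraries and depth. Fcer1g was most like Litaf (r = 0.89 and 0.90), Zbtb16 most like Thbd (0.85 and 0.86) and Blk most like Fam167a (0.93 and 0.89), which lies 19206 bases from it on the same chromosome. Id3 was most like Dnaaf1 (0.82 and 0.86), Syk most like Adamts17 (0.84 and 0.84) and Tyrobp most like Klf9 (0.74 and 0.88). The likeness was lower for Id2 (Ninj2, 0.73 and 0.73) and Hcst (Cisd1, 0.65 and 0.69).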

How the data were processed

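Single-nucleus multiome libraries of sorted T cells from cecum and AKP tumor were used through their ATAC part, 1 library per tissue. The authors deposited ATAC fragment files made with Cell Ranger ARC 2.0.0 on mm10, in which each fragment carries a count of its read pairs (deposited counts), and a table of 17 cell labels. Per the study's methods the labels came from Leiden clustering of the RNA after filters on mitochondrial reads, genes, UMIs, fragments and transcription start site enrichment; the sources used here do not give how doublets were treated. Each fragment was counted once, by barcodes of labelled cells, where either end fell in a gene span of GRCm38 plus 5 kb. Levels are fragments per 1000000 fragments of the label in that library (FPM). Duplicates had been collapsed by the authors at 4.29 and 3.11 read pairs per fragment.

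No test was possible with 1 library per tissue. Ratios carry exact conditional binomial 95% intervals and levels exact Poisson intervals, for counting error only; a count of 0 was set against a floor of 3 fragments. A call needed 1.5-fold on log2(FPM + 1) in both libraries and 50 fragments over label and conventional cells in each. The genes named are the 9 chosen ones, for each the gene most like it (of 3 ranked, among genes with at least 200 fragments over the labels), the 2 highest and 2 lowest of each list, from which the text gives a selection, and, per gene, the 2 highest and 1 lowest 500-base tile with 20 fragments (tallies of tiles use 20 conventional fragments, a choice made after values were seen); Spi1, Lyz2, Epcam and the label markers come from fixed marker lists. Tiles of each gene were compared in the label where its window ratio was highest, by the smaller of both libraries. Genes and lists were chosen with earlier results of these data known. The alternatives were 20 kb flanks, the span alone, gene ends within 1 kb, other scalings, cell filters, weights, references, minima, pseudocounts and folds. RNA was not analysed here, and results for some genes are not reported here. The counting was tested on simulated data. The tools were scipy 1.17.1 for intervals, numba 0.67.0 for counting, matplotlib 3.10.9 for figures, and pandas 2.3.3 with numpy 2.4.6 for tables, under Python 3.11.15.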

Additional observations from a re-analysis of the deposited data

Results flagged for a closer look

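Syk in CD8aa cells moved in opposite directions in the 2 libraries. Its log2 ratio over conventional cells was -1.98 for cecum cells, from 4 fragments (interval -3.88 to -0.59). For tumor cells it was 0.81, from 35 fragments (interval 0.24 to 1.35). The difference between the libraries was not tested, since each tissue has 1 library. Under the alternatives the cecum ratio stayed between -2.62 and -0.87, and the tumor ratio went as low as -0.14.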

How the results depend on the processing

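No paired analysis was possible because each tissue has 1 library. Of 150 counts of called genes recomputed under alternatives, 135 stayed within 1.5 times. In Innate-like T#1 the 5 higher genes became 3 with 20 kb flanks (without Fcer1g and Id3), 2 within 1 kb of the gene ends (without Id3, and without Sox13 and Syk, which fell under 50 fragments) and 3 at 2-fold (without Id3 and Syk); Id3 was also lost for the gene span alone (where Tyrobp was gained), the mean over cells, equal weights and CD8 labels alone. In Innate-like T#2 the 3 higher genes became 1 (Zbtb16) near gene ends and with a minimum of 200 fragments, where Fcer1g and Syk had too few fragments, and the 1 lower gene, Blk, became 0 near gene ends, with equal weights of the conventional labels, against CD8 labels alone and at 2-fold. The higher genes in CD8aa fell to 1 with 20 kb flanks, and those in Cytotoxic gdT fell to 1 with 20 kb flanks and near gene ends, each time without Fcer1g; near gene ends CD8aa gained Tyrobp. There Fcer1g in CD8aa (log2 2.33 and 1.90) and Cytotoxic gdT (1.58 and 1.49) and Sox13 in Rorgt gdT (1.87 and 2.52) were lost only because they fell under 50 fragments in the cecum. In Cytotoxic gdT the 0 lower genes became 1, Syk, for the gene span alone, scaling to fragments near gene ends and equal weights. Of 996 ratios over conventional cells, 790 stayed within their counting interval and 77 changed sign, 0 of them among the 352 of called genes; the called Zbtb16 ratios in Rorgt gdT ran from 3.03 to 3.98 in the cecum and from 2.60 to 3.58 in the tumor. Of 312 tumor over cecum ratios, 2 of those beyond 1.5-fold changed sign, both Fcer1g in Rorgt gdT cells (0.64 as reported), with -0.49 for the gene span alone and -0.059 with 20 kb flanks, on 15 and 23 fragments. Depth limits Syk, with 4 to 67 fragments in every innate-like label but Innate-like T#1, and Sox13 (17 and 32) and Blk (4 and 54) in Innate-like T#2.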
